A study of Mus musculus with 14 samples.

Results

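The comparison described here is that of epidermal stem cells (EpdSCs) after 2 weeks of SOX9 induction (W2) with EpdSCs before induction (D0). It uses 4 of the 14 samples of the series, 2 biological replicates at D0 and 2 at W2, which belong to a time course of 10 RNA-seq libraries. Members were all genes whose TPM averaged 1 or more across the time course, 13110 of the 54332 genes in the deposited table. TPM is a unit of transcript abundance that is corrected for transcript length and scaled to the same total in each library. All mice carried K14rtTA, a doxycycline-dependent activator driven by the *Krt14* promoter of basal keratinocytes, and TRE-myc-Sox9, a MYC-tagged *Sox9* transgene that this activator switches on. They were CD1 mice labelled as male. The D0 mice were at P21 and the W2 mice at P35 after a doxycycline injection at P21 and doxycycline feed, so age cannot be told apart from time on doxycycline, and no age-matched control without the transgene was analysed here. Cells came from back skin and were sorted as CD31/45/117/140a-negative, CD49f-high, CD34-negative and Ly6A-high. Libraries were made with a SMARTer kit for small amounts of RNA. In sorted populations measured in bulk, fewer cells of a type and less RNA per cell cannot be told apart.

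EpdSCs are the basal keratinocytes that maintain the epidermis between hair follicles. They divide on the basement membrane, hold KRT5 and KRT14 filaments and give rise to the suprabasal and cornified layers. SOX9 is a transcription factor of the hair follicle, where it is needed to form and keep hair follicle stem cells (HFSCs), and it is normally low in EpdSCs. WNT, BMP, EGFR and NOTCH signals set the balance between growth and differentiation in both lineages.

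The entry for the transgene, MYC-SOX9, had 89.6 and 45.6 TPM in the D0 libraries and 1892 and 1469 TPM in the W2 libraries. Both W2 libraries were far above both D0 libraries. The log2 change was 4.68 (s.e. 0.32, adjusted *P* = 9.61e-05). Here and throughout, a log2 change is that of TPM + 1 between W2 and D0 from limma with Benjamini-Hochberg adjustment over all genes tested, and a gene is said to rise or fall at an adjusted *P* under 0.05. For genes of low TPM, this scale gives a smaller change than the TPM themselves. The gene *Sox9* itself (chromosome 11, 112782224 to 112787760, GRCm38) had 11.5 and 9.47 TPM at D0 and 11.4 and 9.68 TPM at W2, a log2 change of 0.01. Its reads can be shared with the transgene, so the split between both entries is uncertain.

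The labelled cell type was checked against marker genes. *Krt14*, the basal keratin gene, had 29902 and 31097 TPM at D0 and 19997 and 22823 TPM at W2, and *Itga6*, which encodes CD49f, had 196 and 289.7 TPM at D0 and 185 and 159 TPM at W2. *Cd34* was at 0.383 TPM or less in all 4 libraries. *Ly6a*, which encodes the Ly6A antigen of the sort, fell from 756 and 565 TPM to 293 and 268 TPM (log2 change −1.22, adjusted *P* = 0.00905). The defining genes of endothelial cells (6 of 6), Merkel cells (5 of 5) and fibroblasts (5 of 7) were under 1 TPM in all 4 libraries. Of 9 listed genes of dendritic epidermal T cells, 7 were also under 1 TPM, and *Thy1*, which those cells share with other cells, fell. The summed TPM of 10 Langerhans cell genes was 223 and 346 at D0 and 617 and 528 at W2, most of it *Epcam*, while *Ptprc* and *Cd207* were too low to be tested. *Epcam* and *H2-Aa* were the 2 called genes of that list.

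A library stood apart from its label. D0 replicate 2 had 4.61 TPM of *Xist* and 0.0278 TPM of the Y-linked *Ddx3y*, where D0 replicate 1 had 0.00103 and 32.1 TPM and the W2 libraries had 0 TPM of *Xist* and 32.7 and 28.9 TPM of *Ddx3y*. The W12 libraries, which bear on the choice of genes tested and on the estimate of spread, had 5.51 and 3.5 TPM of *Xist* beside 11 and 12.9 TPM of *Ddx3y*. Per the study's methods, W12 skin was grafted onto female mice, and the part of host cells in these values was not tested. *Uty*, *Kdm5d* and *Eif2s3y* were likewise at 0.0382 TPM or less in D0 replicate 2. For most lists, counts of called genes are therefore also given with 1 library left out. The order is always D0 replicate 1, D0 replicate 2, W2 replicate 1 and W2 replicate 2. The transcripts of mitochondrial genes summed to 14636 and 12293 TPM at D0 and to 23468 and 23770 TPM at W2, and their part in the results was not tested.

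At W2, 2058 of the 13110 genes differed from D0, 15.7% of those tested. The 1188 genes that rose were 9.06% of the genes tested and the 870 that fell were 6.64%. The median log2 change of all genes was 0.06. Both W2 libraries lay above both D0 libraries in 4606 of the genes tested and below both in 3491. With 2 libraries a group, a lack of overlap was thus common, and it is given below only as a description. Of the genes tested, 360 were under 1 TPM in all 4 libraries and passed the filter through other timepoints. Of the called genes, 223 rose by at least 2 on the log2 scale and 181 fell by at least that much. Without D0 replicate 2, 1424 genes were called, and of the 2058 genes all kept their direction and 1180 were called again. With 1 W2 library left out, 782 genes were called without W2 replicate 1 and 652 without W2 replicate 2.

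**Figure D1:**
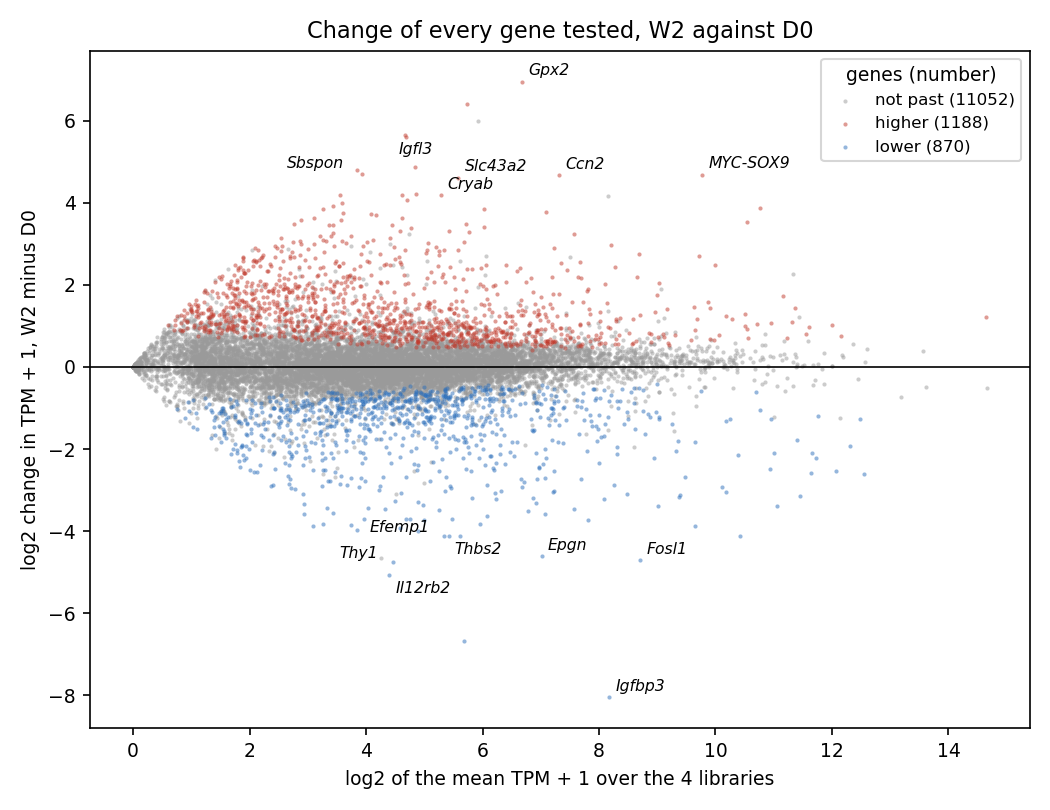
Every gene tested, plotted by the log2 of its mean TPM + 1 over the D0 and W2 libraries (x axis) and its log2 change in TPM + 1, W2 minus D0 (y axis). Red points are the 1188 genes that rose, blue points the 870 that fell and grey points the others, and the largest rises and falls among genes averaging at least 10 TPM are named.

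Among genes averaging at least 10 TPM in the 4 libraries, the largest rise was that of *Gpx2* (chromosome 12, 76792333 to 76795554, GRCm38), a glutathione peroxidase. It had 0.68 and 0.607 TPM at D0 and 189.9 and 214 TPM at W2. The groups did not come near each other, and the log2 change was 6.95 (s.e. 0.63, adjusted *P* = 0.000363). *Igfl3* and *Sbspon*, both of which encode secreted proteins, followed, with log2 changes of 4.88 and 4.70. *Ccn2*, a matricellular protein gene, rose from 7.27 and 15.3 TPM to 385 and 226 TPM. *Slc43a2*, a transporter of neutral amino acids, rose from 1.88 and 3.91 TPM to 85.7 and 96.5 TPM, and *Cryab*, a small heat shock protein, from 3.32 and 2.86 TPM to 71.7 and 74.2 TPM. Genes of this rank were chosen among called genes whose groups did not overlap, so the separation of the libraries follows from that choice. Further rises of this rank were those of *Nfe2l3*, *Sema6a*, *Krt79*, *Orm1*, *Krt6a*, *Samd5* and *Mfge8*, with log2 changes of 4.06, 3.98, 3.87, 3.85, 3.78, 3.75 and 3.73.

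The largest fall was that of *Igfbp3* (chromosome 11, 7206086 to 7213923, GRCm38), which encodes a binding protein of insulin-like growth factors. It had 551 and 595 TPM at D0 and 1.64 and 0.812 TPM at W2. *Il12rb2*, a subunit of the interleukin 12 receptor, fell from 27 and 53.1 TPM to 0.206 and 0.132 TPM (log2 change −5.06, s.e. 0.30, adjusted *P* = 7.24e-05). *Thy1* fell from 35.7 and 47.5 TPM to 0.35 and 0.821 TPM. The same rule of no overlap was used to choose the falls. *Efemp1* and *Thbs2*, both of the extracellular matrix, fell by 4.12 and 4.11 on the log2 scale, and *Gdpd2*, *Arl4d*, *Adamts14*, *Ccrl2* and *Ifrd1* by 4.11, 3.99, 3.96, 3.93 and 3.88. *Fosl1*, *Epgn*, *Nr4a1*, *Bmp3* and *Il1r2*, the others of this rank, are described with their families.

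Genes were then described by family. The 37 lists hold 1522 genes, of which 1519 were found in the table and 1277 passed the filter on low TPM. A percentage after a list's count is the share of its tested members, to be set beside the 9.06% of all genes that rose and the 6.64% that fell. The plot of called members shows which of these families lay well off the shares of all genes.

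**Figure D2:**
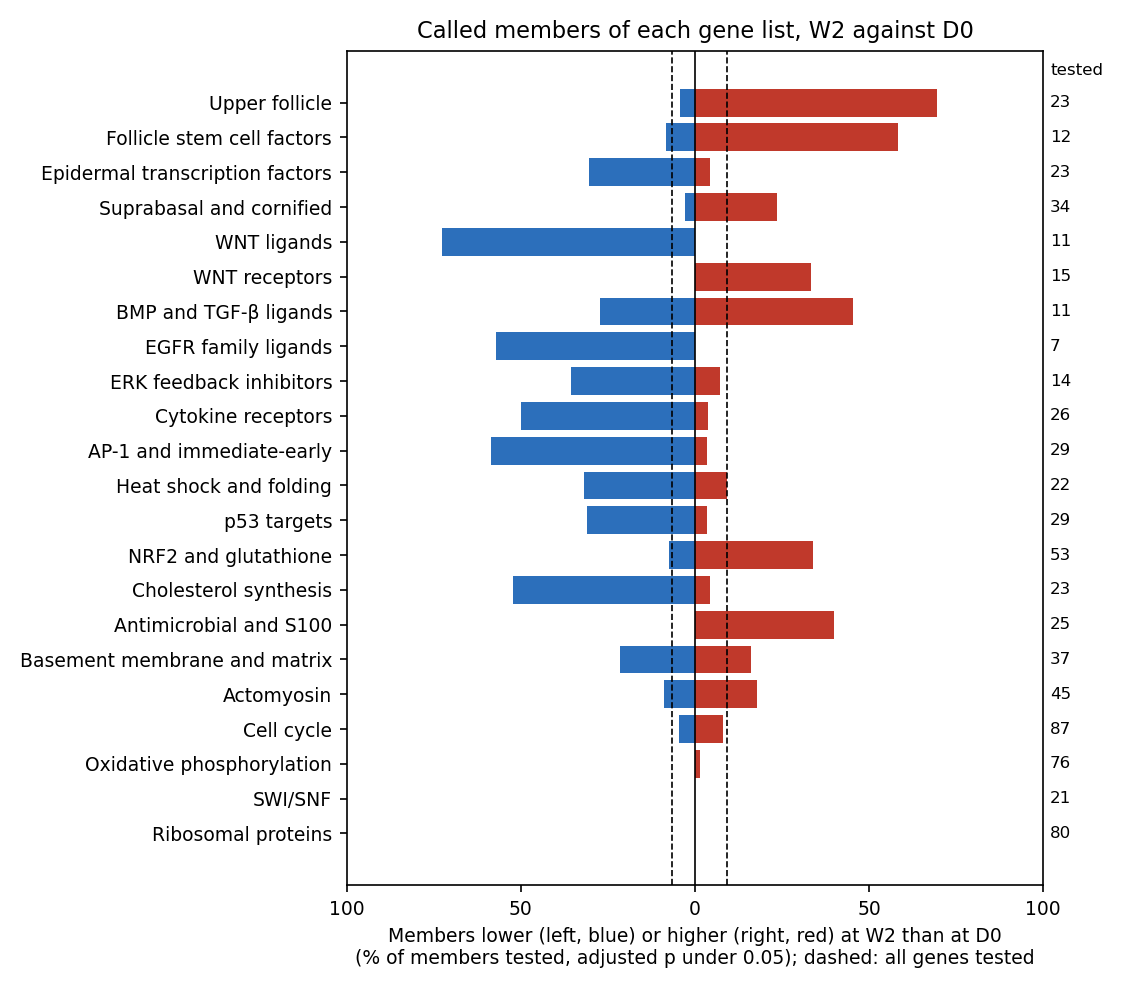
Share of the tested members of each of 22 gene lists that were lower (blue bars, left) or higher (red bars, right) at W2 than at D0, in percent, with the number of members tested at the right. Dashed lines mark the shares of all genes tested, 6.64% lower and 9.06% higher. The WNT ligands, EGFR family ligands, immediate-early genes and cholesterol synthesis genes lie to the left, and the upper follicle list lies to the right.

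WNT proteins are secreted lipid-modified ligands that bind Frizzled receptors. Of 13 listed ligand genes, 11 were tested, and 8 of them fell (72.7%) and none rose, against 6.64% and 9.06% of all genes. The median log2 change of the 11 was −1.28, against 0.06 over all genes. *Wnt3* (chromosome 11, 103774150 to 103817957, GRCm38) had 138 and 144 TPM at D0 and 19.9 and 13.9 TPM at W2. The groups were separated by a wide gap, and the log2 change was −3.01 (s.e. 0.46, adjusted *P* = 0.00376). *Wnt5a*, a ligand known for signalling outside β-catenin, fell from 13.1 and 9.36 TPM to 0.45 and 0.61 TPM. *Wnt3a* fell from 21.2 and 29.1 TPM to 3.12 and 2.8 TPM, and *Wnt7b* from 86.8 and 131 TPM to 15.6 and 24.7 TPM. In each of them the D0 libraries were both the higher ones. *Wnt6*, *Wnt4*, *Wnt10b* and *Wnt10a* fell by 1.90, 1.28, 1.10 and 0.81 on the log2 scale. *Wnt5b*, *Wnt11* and *Wnt16* did not pass the test, with log2 changes of −0.16, 0.12 and 0.11. With 1 library left out, 7, 6, 6 and 6 ligand genes fell.

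The receptors of WNT proteins had rises. Of 15 Frizzled, LRP, R-spondin receptor and related genes tested, 5 rose (33.3%) and none fell, and the median log2 change was 0.47. The rises were 4, 5, 4 and 4 with 1 library left out, and 1 gene fell without D0 replicate 1. *Fzd7*, a Frizzled receptor, had 8.1 and 6.64 TPM at D0 and 60 and 52.1 TPM at W2, with no overlap. Its log2 change was 2.77 (s.e. 0.21, adjusted *P* = 0.000151). *Lgr4*, a receptor for R-spondins, rose from 12.8 and 20.6 TPM to 53.9 and 44.4 TPM. *Fzd1*, *Ryk* and *Fzd3* rose by log2 changes of 1.33, 0.92 and 0.89. *Lgr5*, an R-spondin receptor known as a marker of HFSCs, stayed at 0.593 TPM or less in all 4 libraries.

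Of 16 WNT inhibitors, processing factors and targets, 4 rose (25%) and 1 fell (6.25%), and the falls were 2, 1, 0 and 0 with 1 library left out. *Nkd2*, an inhibitor of the pathway, rose from 0.403 and 0.206 TPM to 24.7 and 14.1 TPM (log2 change 3.92, s.e. 0.42, adjusted *P* = 0.00069). *Dkk3*, a Dickkopf family gene, rose from 4.64 and 16 TPM to 73.4 and 55.3 TPM, and in both genes the W2 libraries were higher than either D0 library. *Porcn*, whose enzyme adds the lipid to WNT proteins, rose from 8.29 and 5.71 TPM to 19.3 and 24.8 TPM, while *Wls*, which carries WNT proteins to the cell surface, fell from 205 and 205 TPM to 139 and 134 TPM. *Apc*, of the β-catenin destruction complex, rose by a log2 change of 0.73. *Axin2*, a common target of β-catenin, had 6.61 and 12.1 TPM at D0 and 8.77 and 9.0 TPM at W2, and its groups overlapped.

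Ligands of the EGFR family bind ERBB receptors and drive keratinocyte growth. Of 10 listed, 7 were tested, and 4 fell (57.1%) and none rose, with a median log2 change of −2.33. All 4 leave-out fits also gave 4 falls. *Epgn* (chromosome 5, 91027464 to 91035215, GRCm38), which encodes epigen, had 299.6 and 197 TPM at D0 and 9.89 and 8.11 TPM at W2. The D0 libraries were both over an order of magnitude higher, and the log2 change was −4.61 (s.e. 0.24, adjusted *P* = 5.43e-05). *Hbegf* fell from 181 and 317 TPM to 22.7 and 16 TPM, *Nrg2* from 7.74 and 18.4 TPM to 0.17 and 0.387 TPM and *Areg* from 33.6 and 15.3 TPM to 5.02 and 2.71 TPM. None of these groups overlapped. *Tgfa*, the ligand gene with 4.61 and 7.67 TPM at D0, had 5.94 and 7.5 TPM at W2 and did not pass the test. The receptor genes *Egfr*, *Erbb2* and *Erbb3* did not pass it either, though 2 of the 3 had an unadjusted *P* under 0.05 by limma and 1 of them fell without D0 replicate 1. *Egfr* had 59.9 and 74.9 TPM at D0 and 46.1 and 38.7 TPM at W2 (adjusted *P* = 0.0538).

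Of 14 tested genes that restrain ERK signalling, 5 fell (35.7%) and 1 rose (7.14%). *Dusp5*, a phosphatase of ERK, fell from 84.1 and 163 TPM to 24 and 17.7 TPM. *Errfi1*, an inhibitor of EGFR kinase, fell from 238 and 481 TPM to 83.7 and 79.5 TPM. In both, D0 replicate 2 was the highest library and the groups did not overlap. *Dusp1*, *Dusp7* and *Spred2* fell by 2.10, 1.43 and 0.94 on the log2 scale. *Lrig1*, an inhibitor of ERBB receptors that also marks the upper follicle, rose from 57.3 and 75 TPM to 242 and 215 TPM. The falls were 6, 3, 3 and 3 with 1 library left out, and the rise was lost without either W2 library.

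BMP and TGF-β ligands split within the family. Of 11 tested, 5 rose (45.5%) and 3 fell (27.3%). With 1 library left out, 5, 5, 4 and 3 rose and 3 fell each time. *Bmp2* (chromosome 2, 133552159 to 133562885, GRCm38) had 49.3 and 56.2 TPM at D0 and 5.28 and 3.77 TPM at W2, a log2 change of −3.29 (s.e. 0.20, adjusted *P* = 7.24e-05). *Bmp4* fell from 74.9 and 66.8 TPM to 9.32 and 10.9 TPM, and *Bmp3* from 27.7 and 20.3 TPM to 0.355 and 1.16 TPM. For these 3 ligands the W2 libraries were both lower. *Bmp7* rose from 29.2 and 33.8 TPM to 99 and 103 TPM, and *Inhbb*, a subunit of activin B, rose from 2.75 and 2.37 TPM to 27.6 and 25.1 TPM (log2 change 2.94, s.e. 0.20, adjusted *P* = 0.000109). *Tgfb3*, *Bmp6* and *Bmp1* rose by log2 changes of 1.82, 1.80 and 1.13. *Bmp1* encodes a protease and not a growth factor. Over the receptors, *Acvr2b* rose and *Tgfbr2* fell, and 8 of 10 did not pass the test, so that 10% were called in each direction. With 1 library left out, 1, 1, 1 and 0 receptor genes rose and 2, 1, 0 and 0 fell. Of the BMP targets, *Id1* had 239.5 and 220.1 TPM at D0 and 106 and 68 TPM at W2, and *Id3* had 419 and 573 TPM and 229 and 151 TPM. Both fell, with adjusted *P* = 0.0176 and 0.0209. *Fst*, an antagonist of activins, rose from 91.8 and 33.3 TPM to 304 and 269.8 TPM. Of the 21 SMADs, inhibitors and targets tested, 4 fell (19%) and 2 rose (9.52%), and with 1 library left out the falls were 3, 1, 3 and 0 and the rises 1, 1, 0 and 0.

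**Figure D3:**
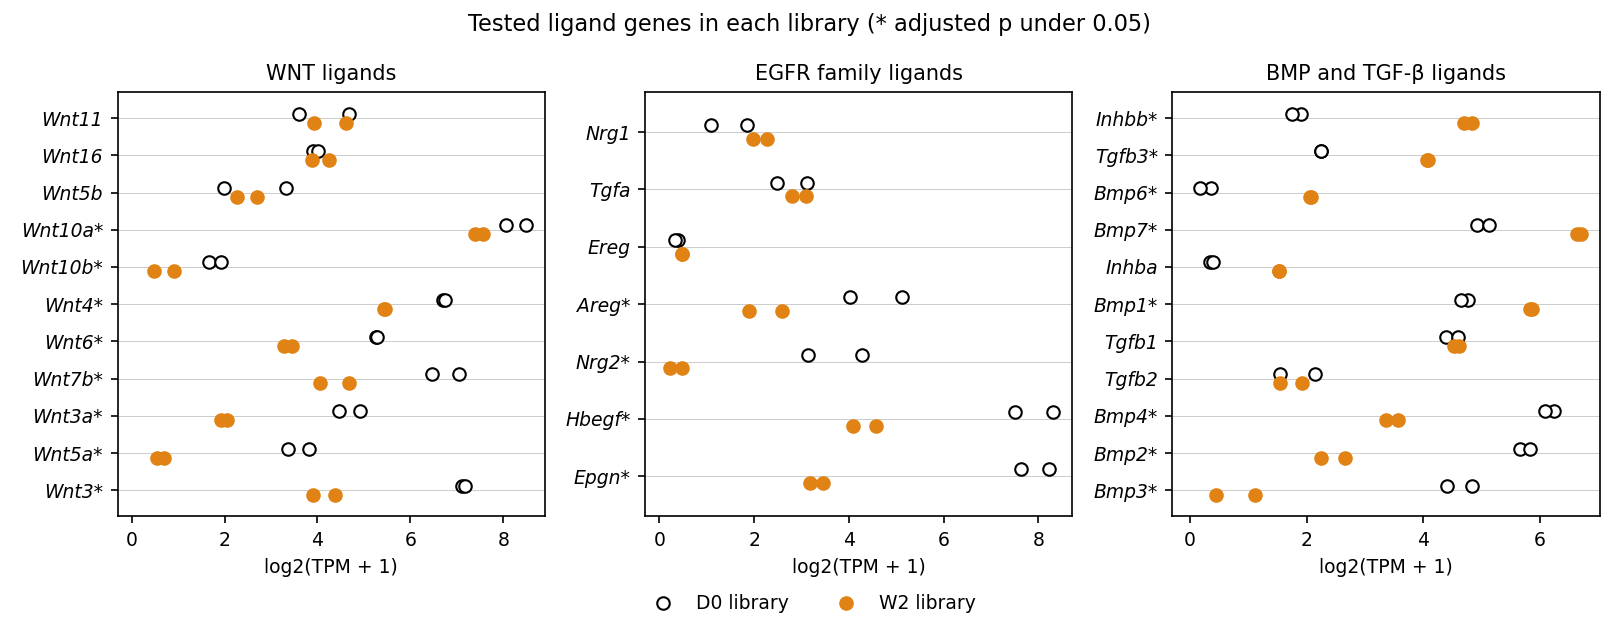
Expression of every tested ligand gene of the WNT, EGFR and BMP and TGF-β families as log2(TPM + 1) (x axis) in the D0 libraries (open circles) and the W2 libraries (orange circles). Asterisks mark genes with an adjusted *P* under 0.05: 8 of 11 WNT ligands and 4 of 7 EGFR family ligands, all lower at W2, and 8 of 11 BMP and TGF-β ligands, 5 higher and 3 lower.

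FGF receptors differed by gene. *Fgfr1* rose from 6.03 and 8.13 TPM to 56.4 and 57.3 TPM, while *Fgfr2*, the main FGF receptor gene of epithelia, fell from 222 and 395 TPM to 129.6 and 110.3 TPM and *Fgfr3* from 135 and 268 TPM to 86.5 and 98.9 TPM. *Fgfbp1*, a carrier of FGFs, fell from 755 and 1129 TPM to 82.4 and 92.1 TPM (log2 change −3.39, s.e. 0.28, adjusted *P* = 0.000219). Within each of the 4 genes the groups did not overlap. The FGF list had 3 falls (42.9%), and 3, 2, 2 and 1 with 1 library left out. Of the IGF axis, *Igfbp7* fell beside *Igfbp3* (1, 3, 1 and 2 falls with 1 library left out), and the receptor genes *Igf1r* and *Insr* did not pass the test, with log2 changes of 0.54 and 0.56.

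Of 15 NOTCH genes tested, 1 rose and 1 fell (6.67% each, beside 9.06% and 6.64% of all genes), and with 1 library left out 1, 2, 1 and 1 rose and 2, 1, 1 and 1 fell. *Numbl*, an adaptor related to the NOTCH inhibitor NUMB, rose from 2.63 and 4.89 TPM to 13.8 and 18.1 TPM, and *Hes1*, a NOTCH target, fell from 879.7 and 744 TPM to 207 and 147 TPM. The receptor gene *Notch1* had 21.2 and 39.7 TPM at D0 and 39.6 and 40.7 TPM at W2. Of 13 hedgehog genes tested, 2 rose (15.4%) and 1 fell (7.69%). *Gli2* and *Gli3*, transcription factors of the pathway, rose by log2 changes of 1.61 and 0.75, and *Cdon*, a co-receptor, fell by 0.99. With 1 library left out, 2, 1, 1 and 1 hedgehog genes rose and none fell. No hedgehog ligand gene was abundant enough to be tested, and the target *Ptch1* had 1.73 and 2.77 TPM at D0 and 4.1 and 3.62 TPM at W2.

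The upper follicle list holds keratins and secreted or surface proteins of the infundibulum and isthmus, the parts of the follicle nearest the skin surface. Of 23 tested, 16 rose (69.6%) and 1 fell (4.35%), with a median log2 change of 1.85. *Krt79*, a keratin of that region, rose from 330.4 and 147 TPM to 2838 and 3670.4 TPM. *Defb6*, a β-defensin, rose from 376 and 141 TPM to 2285 and 3134 TPM, and *Sostdc1*, an antagonist of BMP and WNT, from 316 and 154 TPM to 1692 and 1205 TPM. All W2 values of these genes lay above all D0 values, and D0 replicate 1 was the higher of the D0 libraries. *Aqp3*, a water and glycerol channel, rose from 192 and 212 TPM to 809.6 and 869.5 TPM. *Krt6a* rose from 22.1 and 13.2 TPM to 201 and 304 TPM, but *Krt16*, whose protein pairs with KRT6 in stressed epidermis, fell from 189 and 201 TPM to 43.7 and 46.7 TPM. *Krt6a* and *Krt6b* are similar in sequence, and so are *Krt14*, *Krt16* and *Krt17*, so values within each of these sets can share reads. The rises of the list were 12, 10, 11 and 8 with 1 library left out. The summed TPM of a list of 9 sebocyte genes was 404 and 208 at D0 and 3219.6 and 4049.5 at W2, most of it *Krt79*, and 5 of the 9 genes were under 1 TPM in all 4 libraries.

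Transcription factors of follicle stem cells and of the epidermis are listed apart. Of the 12 stem cell factors tested, 7 rose (58.3%), 1 fell (8.33%) and the median log2 change was 0.88. Of 23 epidermal factors, 1 rose (4.35%), 7 fell (30.4%) and the median was −0.36. Leaving out 1 library gave 5, 7, 2 and 4 rises of stem cell factors and 9, 2, 3 and 0 falls of epidermal factors. It gave 1, 1, 0 and 0 falls of stem cell factors and 2, 1, 1 and 1 rises of epidermal factors. *Runx1*, a regulator of HFSC activation, rose from 6.98 and 8.04 TPM to 74 and 53.8 TPM (log2 change 2.92, s.e. 0.21, adjusted *P* = 0.000122). *Foxc1*, which keeps HFSCs quiescent, rose from 4.64 and 2.76 TPM to 26.6 and 26.5 TPM, with no overlap. *Tcf7l1*, a repressor of WNT targets in HFSCs, rose from 0.392 and 2.75 TPM to 9.87 and 8.16 TPM. *Gata6*, a factor of the upper follicle, rose from 7.72 and 4.47 TPM to 17.7 and 21.6 TPM. *Nfatc1*, *Nfib* and *Tcf7l2* rose by log2 changes of 1.43, 0.92 and 0.81, and *Hopx* fell by 0.80, a call lost without D0 replicate 1 and without either W2 library. *Lhx2*, a factor of HFSCs, had 1.47 and 4.07 TPM at D0 and 2.13 and 2.86 TPM at W2, and *Nfix* had 315 and 616 TPM and 781 and 801 TPM. Neither passed the test. Of the 8 hair germ and lineage factors tested, 1 rose (12.5%), 2 fell (25%) and the median log2 change was −0.10. The rise was that of *Vdr*, the vitamin D receptor gene, from 50 and 51.5 TPM to 198 and 166 TPM. The falls were those of *Id1* and *Id3*.

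Among epidermal factors, *Ovol1*, which acts as cells leave the cell cycle, fell from 109 and 118 TPM to 36.4 and 34.8 TPM. *Klf4*, a factor of barrier formation, fell from 317 and 486 TPM to 171 and 129 TPM, and *Klf5* and *Klf3* fell by 0.84 and 0.83 on the log2 scale. *Zfp750* and *Gata3* fell by 1.07 and 1.03. *Ehf*, an ETS factor, rose from 14.9 and 19 TPM to 56.3 and 50.4 TPM. *Trp63*, which encodes the master factor of stratified epithelia, did not pass the test, and D0 replicate 2 was the highest library, with 654 TPM against 291 TPM in D0 replicate 1 and 275 and 219 TPM at W2. Of the SOX family, *Sox6* fell from 48.6 and 36.6 TPM to 4.81 and 3.56 TPM, and *Sox13*, *Sox4* and *Sox21* rose by log2 changes of 1.30, 0.65 and 0.57. The SOX rises were 2, 1, 0 and 0 with 1 library left out, and the fall was lost without W2 replicate 2.

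Basal and suprabasal genes were counted in the same way. Of 15 basal genes, 4 fell (26.7%) and 1 rose (6.67%), and with 1 library left out 4, 4, 3 and 3 fell and 1, 0, 0 and 0 rose. The falls were those of *Thbs1*, of the metallothionein genes *Mt1* and *Mt2*, and of *Slc1a3*, a glutamate transporter. *Mt1* fell from 8734 and 11956 TPM to 1773 and 1576 TPM and *Mt2* from 4619 and 6358 TPM to 943 and 861 TPM. *Krt5*, *Krt14* and *Krt15* had log2 changes of −0.49, −0.51 and −0.74 and did not pass the test. Of 34 suprabasal and cornified genes, 8 rose (23.5%) and 1 fell (2.94%), with a median log2 change of 0.52. Keratins *Krt1* and *Krt10* of the suprabasal layers did not pass the test, with log2 changes of −0.83 and −0.28. *Flg*, which encodes filaggrin, rose from 0.591 and 3.1 TPM to 18.2 and 27.7 TPM, *Ivl*, which encodes involucrin, from 0.963 and 1.01 TPM to 6.72 and 6.58 TPM, and *Sprr1a* from 59.7 and 36.1 TPM to 281 and 269 TPM. *Klk5*, a protease of desquamation, rose from 34.4 and 9.72 TPM to 89.6 and 115 TPM and *Spink5*, a protease inhibitor, from 3.02 and 4.34 TPM to 20.5 and 20.9 TPM. The rises of this list were 11, 4, 3 and 2 with 1 library left out, and its falls 1, 3, 0 and 1.

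AP-1 is a dimer of FOS and JUN family proteins, and immediate-early genes are induced within minutes by growth factors and by stress, including the dissociation of tissue. Of 29 tested, 17 fell (58.6%) and 1 rose (3.45%), with a median log2 change of −1.47. *Fosl1*, which encodes FRA1, had 613 and 993 TPM at D0 and 46 and 18 TPM at W2. The D0 libraries were far higher, and the log2 change was −4.71 (s.e. 0.52, adjusted *P* = 0.000812). *Fos* fell from 7385 and 8547 TPM to 3005 and 1449 TPM, *Junb* from 5321 and 9271 TPM to 1629 and 911 TPM and *Atf3* from 3508 and 6572 TPM to 803 and 368 TPM. *Nr4a1* fell from 1517 and 3649.7 TPM to 238 and 77 TPM, *Ccn1* from 2805 and 4956 TPM to 518 and 244 TPM and *Egr1* from 1932 and 4700.2 TPM to 804 and 361 TPM. W2 replicate 2 was the lowest library and D0 replicate 2 the highest in each of these genes. *Jun* had 2251 and 3467 TPM at D0 and 1591 and 897 TPM at W2 and did not pass the test (adjusted *P* = 0.0508). *Ccn2*, often grouped with *Ccn1* as a target of YAP, was the member that rose, and the YAP gene *Yap1* had 31.1 and 44.8 TPM at D0 and 27.4 and 23.5 TPM at W2. The summed TPM of the 18 listed immediate-early genes outside AP-1 differed between libraries of the same timepoint, 13822 and 26659 at D0 and 5588 and 3048 at W2. The cells were dissociated and sorted before RNA was taken, and the part of that step in these values was not tested. The falls of the list were 20, 10, 13 and 7 with 1 library left out.

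Related stress lists also had falls. Of 22 heat shock and folding genes, 7 fell (31.8%) and 2 rose (9.09%), and with 1 library left out 6, 6, 5 and 5 fell and 2, 1, 1 and 1 rose. *Dnajb1*, a co-chaperone of HSP70, fell from 632 and 1789.7 TPM to 147 and 101 TPM, and *Hspa5*, the chaperone of the endoplasmic reticulum, from 706 and 765 TPM to 336 and 278 TPM. *Hspa4l* rose from 27.9 and 27.1 TPM to 104 and 104 TPM, with no overlap. Of 29 p53 targets, 9 fell (31%) and 1 rose (3.45%). *Cdkn1a*, an inhibitor of the cell cycle, fell from 971 and 1539.6 TPM to 330.2 and 361 TPM, *Pmaip1*, a factor of apoptosis, from 72 and 80.3 TPM to 22.8 and 22.7 TPM and *Gadd45a*, a stress gene, from 41.8 and 28.4 TPM to 14.7 and 11.2 TPM. *Trp53* itself had a log2 change of −0.22 and did not pass the test. The p53 targets that fell were 8, 5, 5 and 4 with 1 library left out, and those that rose 2, 1, 1 and 0.

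**Figure D4:**
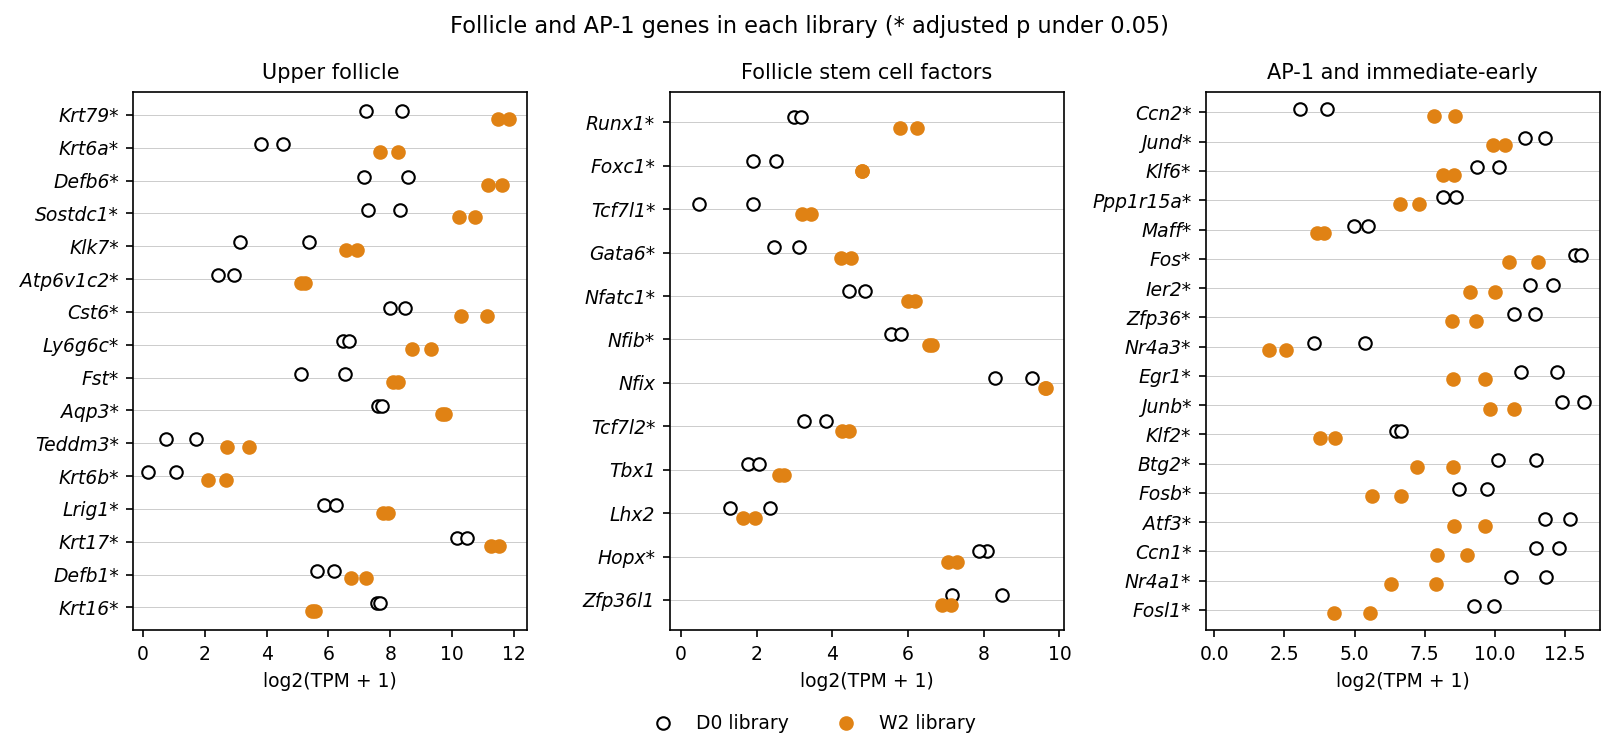
Expression as log2(TPM + 1) (x axis) in the D0 libraries (open circles) and the W2 libraries (orange circles) of 16 of the 17 called members of the upper follicle list, of all tested follicle stem cell factors and of the called members of the AP-1 and immediate-early list. Asterisks mark an adjusted *P* under 0.05, and 15 of the 16 upper follicle genes shown lie higher at W2 while 17 of the 18 AP-1 and immediate-early genes shown lie lower.

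Cytokine receptor genes had many falls. Of 26 cytokine receptor genes tested, 13 fell (50%) and 1 rose (3.85%), with a median log2 change of −0.95. *Il1r2*, a decoy receptor of interleukin 1, fell from 410.3 and 419.8 TPM to 28 and 33.4 TPM, *Il20ra* from 70.7 and 107 TPM to 16.9 and 12.8 TPM and *Il18r1* from 12.4 and 7.01 TPM to 1.69 and 1.14 TPM. In each the W2 libraries were both lower. *Lifr*, the receptor gene for LIF, rose from 13.8 and 12.5 TPM to 53.3 and 74.8 TPM. Of 19 tested interleukins and TNF family genes, 5 fell (26.3%) and 1 rose (5.26%). Among them *Il33*, an alarmin, fell from 113 and 154 TPM to 16.2 and 10.9 TPM, and *Csf1*, a growth factor of macrophages, rose from 7.02 and 7.42 TPM to 31.1 and 21.1 TPM. *Cxcl14* was the only chemokine gene of 12 tested (8.33%) that fell, from 677 and 1393 TPM to 267 and 208 TPM. None of the 14 class I antigen presentation genes passed the test by limma, and 0 had an unadjusted *P* under 0.05. Of 22 interferon-stimulated genes, 4 fell (18.2%) and none rose, *Usp18* most, from 25.1 and 33 TPM to 1.85 and 1.68 TPM. Leaving out 1 library gave 16, 8, 6 and 7 falls among the receptor genes. It gave 6, 3, 2 and 0 falls among the interleukins and TNF family genes, 2, 2, 1 and 1 among the chemokines and 3, 2, 2 and 1 among the interferon-stimulated genes, and 1 chemokine gene rose without D0 replicate 1.

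Secreted defence genes had rises. Of 25 antimicrobial and S100 genes tested, 10 rose (40%) and none fell, with a median log2 change of 0.60, and with 1 library left out 11, 8, 8 and 5 rose. *Lcn2*, an iron-sequestering protein gene, rose from 0.361 and 0.167 TPM to 6.72 and 7.06 TPM, *Slpi*, a protease inhibitor, from 0.527 and 0.148 TPM to 5.15 and 13.5 TPM and *S100a9*, a subunit of calprotectin, from 0.0949 and 0.215 TPM to 4.33 and 8.27 TPM. All were low at D0 and higher in both W2 libraries. *S100a6* rose from 1799 and 1109.8 TPM to 3511 and 4170.3 TPM. *S100a8*, which encodes the other subunit of calprotectin, did not pass the test, with a log2 change of 0.81.

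The NRF2 and glutathione list holds NRF2, its inhibitor KEAP1 and enzymes that make and use glutathione or thioredoxin against oxidants. Of 58 listed genes, 53 were tested, and 18 rose (34%) and 4 fell (7.55%), with a median log2 change of 0.41. With 1 library left out, 20, 14, 9 and 8 rose and 3, 4, 2 and 0 fell, and with only the D0 and W2 libraries in the fit 9 rose and 1 fell. Beside *Gpx2*, *Mgst1*, a microsomal glutathione transferase, rose from 44.2 and 28.3 TPM to 338 and 344 TPM (log2 change 3.23, s.e. 0.24, adjusted *P* = 0.000135). *Aldh3a1*, an aldehyde dehydrogenase, rose from 119 and 87.7 TPM to 551 and 881 TPM, and the groups were far apart in both genes. *Gclm*, a subunit of the enzyme that starts glutathione synthesis, rose from 41.8 and 26 TPM to 114 and 117 TPM, and *Nqo1*, a quinone reductase, from 17.5 and 13.9 TPM to 46.7 and 51.1 TPM. The glutathione transferases *Gstm5* and *Gstm1* rose by log2 changes of 2.07 and 1.90. These transferases are close in sequence and their values can share reads. *Osgin1*, *Gsta2*, *Gsr* and *Gstp1* fell by 2.23, 1.78, 0.75 and 0.51. The NRF2 gene *Nfe2l2* had 62.5 and 75.2 TPM at D0 and 55.8 and 64.9 TPM at W2, and *Hmox1* had 8.45 and 7.44 TPM and 10.3 and 10.9 TPM, and neither passed the test.

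Promoters of genes of this list are shown because the oxidant response of such genes is known to run through the antioxidant response element. Promoters were 300 bases, 250 before and 50 after the start of transcription, as RefSeq gives them on GRCm38.p6. The letters TGACNNNGC were searched on both strands and were found in the promoters of 16.5% of the 9614 tested genes that had one, 15% of those that rose and 17.5% of those that fell. Of the list's members with a promoter, 13 of the 46 tested held the letters (28.3%), near the share of those that rose, 5 of 17 (29.4%). In the AP-1 and immediate-early list, 8 of the 23 genes with a promoter held them, or 34.8%, so the letters are not particular to the NRF2 list. Stretches of 60 bases around the match are given for those 5 genes, with the match in capitals, from chr3:122245398-122245457 (+ strand) for *Gclm*, chr3:107895787-107895846 (+ strand) for *Gstm5*, chr6:138140446-138140505 (+ strand) for *Mgst1*, chr4:116685441-116685500 (+ strand) for *Prdx1* and chr5:65435921-65435980 (− strand) for *Ugdh*, which has 2 matches. The match of *Prdx1* overlaps one to TGANTCA, the letters of AP-1.
Gclm: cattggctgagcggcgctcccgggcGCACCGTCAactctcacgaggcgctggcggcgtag
Gstm5: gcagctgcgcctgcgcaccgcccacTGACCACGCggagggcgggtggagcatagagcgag
Mgst1: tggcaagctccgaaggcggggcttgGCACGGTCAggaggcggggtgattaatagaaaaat
Prdx1: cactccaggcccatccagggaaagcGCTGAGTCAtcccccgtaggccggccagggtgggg
Ugdh: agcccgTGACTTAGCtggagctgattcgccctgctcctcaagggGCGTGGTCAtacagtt

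The other motifs were compared in the same way. Shares are of genes with a promoter, and a gene with several promoters was counted once if any of them matched. The letters TGANTCA were found for 6.4% of all such genes, 7.6% of those that rose and 7.3% of those that fell. The SOX letters CTTTGT were in 16%, 17.2% and 14.8%, and ACAATG in 8.7%, 8.9% and 7.3%. TEAD letters GGAATG were in 14.2%, 15% and 13.8%, and E-box letters CACGTG in 11.9%, 9.9% and 12.7%. The GLI letters GACCACCCA were in 0.2%, 0.4% and 0.1%. The full cAMP response element TGACGTCA was found for 3.7% of all such genes, 1.9% of those that rose and 6.0% of those that fell. It was found for 3 of the 14 fallen AP-1 and immediate-early genes with a promoter, and none of the 14 held TGANTCA. The match is shown in capitals for these 3, from chr1:134079288-134079347 (− strand) for *Btg2*, chr15:79347465-79347524 (+ strand) for *Maff* and chr7:45526247-45526306 (− strand) for *Ppp1r15a*.
Btg2: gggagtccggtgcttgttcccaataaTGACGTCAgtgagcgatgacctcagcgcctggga
Maff: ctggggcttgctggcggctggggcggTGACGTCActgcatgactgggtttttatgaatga
Ppp1r15a: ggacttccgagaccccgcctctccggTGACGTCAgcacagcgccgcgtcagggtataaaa

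The cholesterol pathway runs from acetyl units to cholesterol, and its genes are activated by SREBP2 when sterols are scarce. Of 23 synthesis and uptake genes tested, 12 fell (52.2%) and 1 rose (4.35%), with a median log2 change of −1.18. *Hmgcs1*, an early enzyme of the pathway, fell from 326 and 307 TPM to 131 and 148 TPM, and its groups were apart. Further along the pathway, *Fdft1*, *Cyp51*, *Msmo1* and *Sc5d* fell by 1.76, 1.73, 2.08 and 1.59 on the log2 scale, and *Insig1*, the sterol sensor that holds SREBP back, fell from 44.1 and 41.3 TPM to 11.8 and 7.73 TPM. *Srebf2*, which encodes SREBP2, had 103 and 108 TPM at D0 and 92.3 and 88.1 TPM at W2 and did not pass the test. The falls were 11, 13, 10 and 10 with 1 library left out, and the rises 2, 0, 0 and 0. Of 25 genes of fatty acid synthesis and desaturation, 3 fell (12%, beside 6.64% of all genes), *Acsl3*, *Fasn* and *Acsl5*, and *Acsl4* rose (4%, beside 9.06%). With 1 library left out, 3, 2, 1 and 1 of them fell and 2, 0, 0 and 0 rose.

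**Figure D5:**
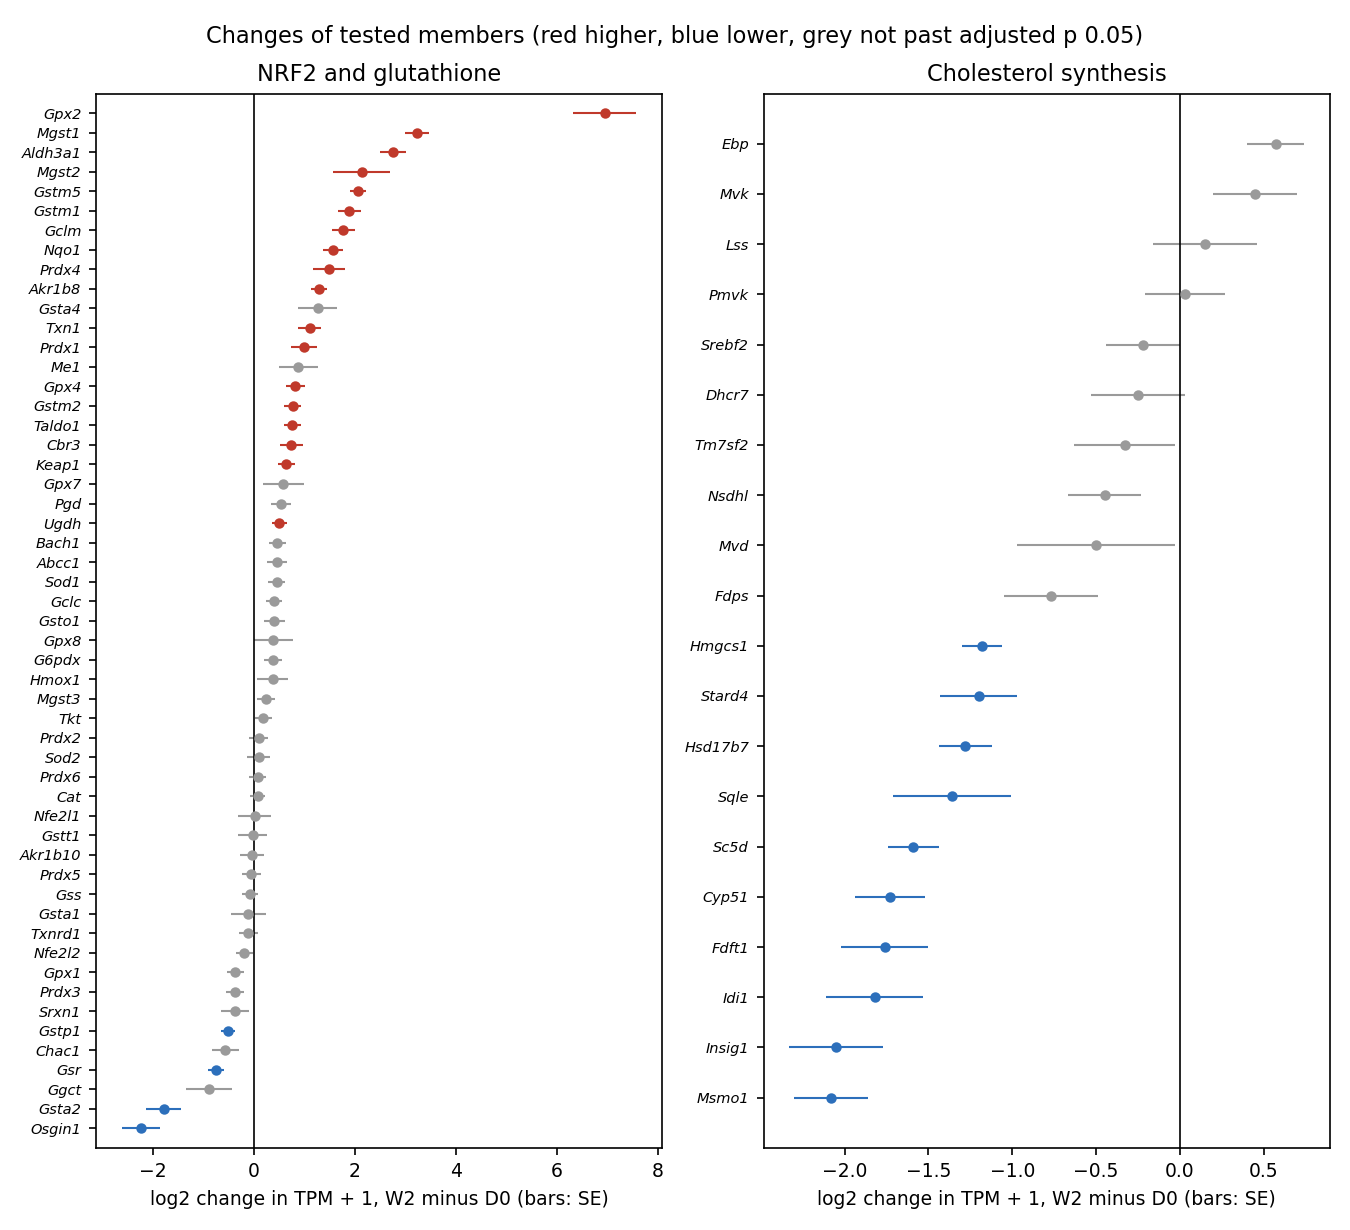
Log2 change in TPM + 1, W2 minus D0 (x axis), with its standard error (bars) for the 53 tested genes of the NRF2 and glutathione list and 20 of cholesterol synthesis. Red points rose, blue points fell and grey points did not pass an adjusted *P* of 0.05, with 18 red and 4 blue on the left and 10 blue on the right.

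None of the 80 ribosomal protein genes tested passed the threshold by limma and 1 had an unadjusted *P* under 0.05, and their median log2 change was 0.12. Among 76 nuclear genes of oxidative phosphorylation only *Sdhb*, a subunit of complex II, passed, with a log2 change of 0.97. The count of oxidative phosphorylation genes turned on single libraries. Without D0 replicate 1, 49 of the 76 genes of oxidative phosphorylation rose and their median log2 change was 0.58. Without D0 replicate 2, 1 rose and the median was −0.06, and without either W2 library none rose. Of the ribosomal protein genes, 2 rose without D0 replicate 1 and 1 fell without W2 replicate 1. Of 23 glycolysis genes tested, 3 rose (13%, beside 9.06% of all genes) and 2 fell (8.7%, beside 6.64%), and with 1 library left out 6, 2, 1 and 1 rose and 2, 0, 0 and 1 fell. *Ldhb* rose from 29 and 21.4 TPM to 98 and 104 TPM. Of 18 tested hypoxia response genes, 6 fell (33.3%) and 2 rose (11.1%). *Adm*, a vasodilator peptide gene, fell from 47.3 and 46.3 TPM to 3.5 and 2.01 TPM, *Hif1a*, the hypoxia factor, from 95.6 and 139 TPM to 45.2 and 34.2 TPM, and *Car12*, a carbonic anhydrase, rose from 24.6 and 19.4 TPM to 81.7 and 80.8 TPM. The hypoxia genes that fell were 5, 3, 2 and 2 with 1 library left out, and those that rose 2, 2, 1 and 1. No subunit of the SWI/SNF remodelling complex (21 tested) or of the MLL/COMPASS methyltransferases (16 tested) passed the threshold by limma, and 4 and 3 of them had an unadjusted *P* under 0.05. Without D0 replicate 1, 1 SWI/SNF gene rose and 1 MLL/COMPASS gene fell.

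Of 87 cell cycle genes tested, 8.05% rose and 4.6% fell, near the 9.06% and 6.64% of all genes, and a difference between phases was not tested. Of 35 S phase genes tested, 4 rose (11.4%) and none fell, and their median log2 change was 0.60. Of 35 G2 and M phase genes, 1 rose (2.86%) and 3 fell (8.57%), with a median of −0.29. *Mcm6*, a replicative helicase subunit, rose from 71.7 and 42 TPM to 112 and 88 TPM. *Aurka*, a mitotic kinase, fell from 39.3 and 31.4 TPM to 20 and 20.2 TPM. *Mybl2*, a proliferation factor, rose by a log2 change of 1.70 (adjusted *P* = 0.00643). *Mki67* had 25.4 and 10.7 TPM at D0 and 17.6 and 20.5 TPM at W2, and its groups overlapped. These counts turned on single libraries of both groups. Without D0 replicate 1, 23 S phase genes rose (median 1.05), and of G2 and M phase genes 3 rose and 1 fell (median 0.03). Without D0 replicate 2, no S phase gene rose (median 0.18), and of G2 and M phase genes 1 rose and 8 fell (median −0.52). Without either W2 library no S phase gene rose and no G2 or M phase gene fell. *Ccnd2*, a G1 cyclin gene, rose from 446 and 598 TPM to 1397 and 1394 TPM.

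Of 37 basement membrane and matrix genes tested, 6 rose (16.2%, beside 9.06% of all genes) and 8 fell (21.6%, beside 6.64%), and with 1 library left out 5, 4, 3 and 4 rose and 7, 7, 5 and 4 fell. *Thbs1* fell from 787 and 1679 TPM to 229 and 141 TPM and *Thbs2* from 39.9 and 120.2 TPM to 1.77 and 5 TPM, both thrombospondins, and *Sparc* from 330.1 and 142 TPM to 32.1 and 33 TPM. *Fbln1*, a fibulin, rose from 15.4 and 7.2 TPM to 76.9 and 87.9 TPM. Of 10 integrin genes tested, *Itgb8* and *Itgb5* rose (20%) and *Itgb6* fell (10%), with log2 changes of 2.28, 1.53 and −1.37, while *Itga6* and *Itgb4* of the hemidesmosome did not pass the test. The integrin falls were 2, 1, 0 and 1 with 1 library left out. Of 46 junction genes tested, 7 rose (15.2%) and 6 fell (13%), and with 1 library left out 4, 5, 3 and 2 rose and 5, 4, 2 and 2 fell. *Gja1*, the gene of connexin 43, fell from 426 and 274 TPM to 30.7 and 29.9 TPM (log2 change −3.45, s.e. 0.33, adjusted *P* = 0.000461), *Cdh4*, which encodes R-cadherin, fell from 13.9 and 24.2 TPM to 0.73 and 0.58 TPM, and *Cldn8*, a claudin, rose from 4.61 and 2.45 TPM to 21.2 and 23 TPM. Of 13 desmosome genes, 1 rose (7.69%) and 2 fell (15.4%). Of these, 2, 1, 1 and 1 rose and 2, 0, 0 and 0 fell with 1 library left out, and none fell with only the D0 and W2 libraries in the fit. *Dsc1*, a desmosomal cadherin, rose from 5.04 and 2.96 TPM to 28.3 and 35.7 TPM, and *Dsg1b*, another, and *Pkp4*, a plakophilin, fell by 0.82 and 1.01 on the log2 scale.

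Of 45 actomyosin genes tested, 8 rose (17.8%, beside 9.06% of all genes) and 4 fell (8.89%, beside 6.64%), and with 1 library left out 10, 9, 7 and 6 rose and 5, 3, 3 and 2 fell. *Cnn3*, a calponin, rose from 2.72 and 3.94 TPM to 18.3 and 16.1 TPM, *Fermt2*, which links integrins to actin, from 0.358 and 0.209 TPM to 5.68 and 4.19 TPM and *Cald1*, a regulator of myosin, from 3.74 and 1.37 TPM to 14.3 and 15.9 TPM. The ERM genes differed, *Msn* rising from 67.8 and 66.5 TPM to 192 and 164 TPM and *Ezr* falling from 497 and 524 TPM to 207 and 212 TPM. Of 57 serpins, proteases and inhibitors tested, 9 rose and 9 fell (15.8% each), and with 1 library left out 8, 4, 2 and 1 rose and 8, 9, 5 and 6 fell. *Serpinb2* fell from 1474 and 2673 TPM to 238 and 238 TPM and *Timp2*, an inhibitor of matrix proteases, rose from 8.02 and 8.81 TPM to 69.5 and 61.6 TPM. Of the guidance genes, 1 of 15 semaphorins and plexins tested rose (6.67%) and 3 fell (20%), and the falls were 3, 2, 2 and 1 with 1 library left out. *Sema6a* was the one that rose, from 0.432 and 0.399 TPM to 24.6 and 18.6 TPM, and of the falls *Sema3d* went from 56.2 and 31.6 TPM to 7.1 and 4.51 TPM, beside *Sema3c* and *Sema3f*.

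Of 29 nuclear receptors and targets tested, 6 rose (20.7%) and 3 fell (10.3%). *Crabp2*, a carrier of retinoic acid, rose from 10.3 and 5.31 TPM to 81.7 and 109 TPM and *Stra6*, a receptor for retinol uptake, from 0.958 and 3.09 TPM to 6.82 and 7.3 TPM. The retinoid receptor genes *Rara*, *Rarg*, *Rxra* and *Rxrb* did not pass the test. *Esr1*, the oestrogen receptor gene, fell from 2.23 and 18.3 TPM to 0.437 and 0.108 TPM, and the D0 libraries differed widely. The rises of the 29 genes were 3, 7, 4 and 3 with 1 library left out, and the falls 5, 0, 1 and 0. Of 25 ion and water transport genes tested, 6 rose (24%) and 2 fell (8%), and with 1 library left out 7, 5, 5 and 3 rose and 3, 1, 2 and 1 fell. *Slc12a2*, a chloride cotransporter, rose from 9.91 and 12.3 TPM to 47.1 and 59.4 TPM and *Atp1b1*, a subunit of the sodium pump, fell from 24.9 and 28.3 TPM to 2.43 and 3.63 TPM.

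The other timepoints are set beside W2 for a few members, as they share the D0 libraries. *Gpx2* had 38.2 and 39.2 TPM at W1, 1349 and 231 TPM at W6 and 817 and 650.2 TPM at W12. *Wnt3* had 29.9 and 31.6 TPM at W1, 5.96 and 22.8 TPM at W6 and 28.2 and 24.4 TPM at W12, all below both D0 libraries. *Fzd7* had 38.9 and 37.4 TPM at W1, 35.8 and 25.8 TPM at W6 and 5.7 and 7.86 TPM at W12, where it overlapped with D0. *Msmo1* had 25.4 and 34.6 TPM at W1, but 143 and 97.3 TPM at W6 and 173 and 193 TPM at W12. *Hmgcs1* had 130.1 and 125 TPM at W6 and 141 and 146 TPM at W12, near its W2 values. *Aldh3a1* had 336 and 294 TPM at W1 and 60.8 and 65.5 TPM at W12, the latter below both D0 libraries. The W12 cells came from grafted skin, which sets that timepoint apart from the others.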

How the data were processed

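RNA from sorted EpdSCs was sequenced by the authors after low-input amplification. Per the study's methods, the authors trimmed reads with Skewer, quantified transcripts with Salmon 1.4.0 against GENCODE M24 transcripts (GRCm38) extended by the transgene, and summed them to genes with Tximport 1.12.3. The authors deposited TPM per gene and library, which sum to 1000000 in each library. Since TPM hold no read totals, depth per library is unknown, and so is the precision it gives. Groups were taken from the sample labels, with 2 biological replicates per timepoint. P values measure the spread between replicates, pooled over the timepoints. The median absolute difference between replicates on log2(TPM + 1) was 0.307 at D0 and 0.128 at W2, and the pooled estimate does not keep these apart.

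Genes that averaged 1 TPM or more across the time course (13110) were tested on log2(TPM + 1) with limma 3.58.1 in R 4.3.3, with the means of 5 timepoints, eBayes with trend and Benjamini-Hochberg adjustment at 0.05. All 10 libraries thus share 1 estimate of spread. TPM do not permit the count test of the study. The members, gene lists and motifs were chosen with earlier results of these data known, so no test over a list is given. Named genes were the transgene entry and *Sox9*, the 15 largest rises and 15 largest falls among called genes averaging at least 10 TPM in the 4 libraries, with no overlap of groups (unnamed models, pseudogenes, ribosomal and mitochondrial genes left out), up to 4 largest called members of each list, members whose role a paragraph needed and the cell type markers. Some members beyond these were chosen after their values were seen. Promoters were taken from RefSeq (GRCm38.p6) and gene positions from GENCODE M21 on GRCm38. A few genes are counted in lists but not reported here by name. The fit was tested on simulated data. Alternatives were another pseudocount (0.1), other filters, scalings and eBayes settings, other sets of libraries, the replicate block, an absolute log2 change of at least 1, and each D0 and W2 replicate left out. Python 3.11.15, numpy 2.4.6, pandas 2.3.3 and matplotlib 3.10.9 were used. The authors' table of placode cells holds only their own comparison and was not used.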

Additional observations from a re-analysis of the deposited data

How the results depend on the processing

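The number of genes that differed between W2 and D0 (2058, of which 1188 rose and 870 fell) was within 1.5 times of that value with a pseudocount of 0.1, an average of at least 5 TPM, scaling by median ratios or by quantiles, a robust eBayes or one with no trend, only the 8 libraries of ungrafted mice and either D0 replicate left out. It was 1011 (598 higher, 413 lower) over all genes with a TPM above 0, of which 38965 were tested, 1086 (666 and 420) with only the 4 libraries of D0 and W2, and 1288 (737 and 551) with an absolute log2 change of at least 1. With only those 4 libraries, 11 upper follicle genes, 4 follicle stem cell factors and 9 NRF2 and glutathione genes rose. In that fit, 8 AP-1 and immediate-early genes, 7 cytokine receptor genes, 4 p53 targets, 1 ERK feedback inhibitor and 1 epidermal factor fell. So did 6 WNT ligands, 3 EGFR family ligands, 9 cholesterol synthesis genes, 2 interferon-stimulated genes and 1 gene of the FGF list. No S phase gene rose in it, while 3 matrix genes and 3 nuclear receptors and targets did. Of the SMADs, inhibitors and targets, 1 fell and none rose. With each replicate left out the number over all genes ranged from 652 to 2568, with 387 to 1580 higher and 265 to 988 lower, and the lone library left in a group is assumed to vary like the others. With the replicate block, the number was 1709 (971 higher, 738 lower). The labels and methods do not say that a replicate number marks a shared mouse, litter or batch, and the deviations of same-numbered D0 and W2 libraries had a correlation of −0.0739 across genes. The share of called genes that rose was 57.7%, and 50.5% when libraries were scaled by median ratios and 50.0% when by quantiles. Of the 30 largest changes, 28 passed the threshold under each of the 14 other fits and none reversed, and the exceptions were *Samd5* and *Il1r2*. Of 357 called list members, none reversed under any of these fits and 246 passed without D0 replicate 2. The depth behind a TPM value is unknown, so no smallest detectable level is given.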
